A study of Mus musculus with 6 samples.

Results

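Ttc30b, Ttc30a1 and Ttc30a2, the mouse genes for the ciliary protein IFT70, and 7 other genes of the intraflagellar transport B complex (IFT-B) were examined in RNA-seq of mouse testes at E12.5 (embryonic stage). The 10 genes were Ttc30b, Ttc30a1, Ttc30a2, Ift88, Ift52, Ift46, Ift57, Ift172, Ift80 and Ift20, each matched by symbol among 24470 genes. Ttc30b was selected on its measured rise in the knockout testes of these samples, and the other genes were chosen as members of the same complex. The question was whether the rise of Ttc30b was shared by its paralogs and by the rest of the complex. Ttc30b rose 1.80-fold, whereas no other IFT-B gene tested passed the edgeR test, which 0.0385% of all genes tested passed.

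The study compared 3 control and 3 Ppp1r3c conditional knockout (cKO) samples. Control embryos were Ppp1r3c f/f, with floxed alleles and no Cre. The cKO embryos were Sf1-Cre Ppp1r3c f/f, so both groups carried the floxed alleles and the Cre transgene was present in cKO embryos only. The product of Ppp1r3c targets a phosphatase to glycogen and favours its synthesis. The Cre is driven by sequences of Nr5a1 (Sf1), which is active in somatic cells of the gonad, including the progenitors of Sertoli cells, so germ cells are not its target. The transgene was maintained on a C57BL/6 background and no source used here gives its insertion site. Each sample pooled 2 gonadal pairs. The labels do not name litters or embryos, so p-values measure the spread between these samples.

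IFT is the movement of protein assemblies along the microtubules of a cilium, the antenna-like projection that most cells carry. IFT-B rides with kinesin-2 towards the tip, and IFT-A with dynein-2 towards the base. IFT70 is a helical repeat protein that wraps around IFT52 in the core of IFT-B. In the fetal gonad, primary cilia are known as the site where cells receive Hedgehog signals, among them Desert hedgehog (Dhh) from Sertoli cells.

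The libraries held between 16139487 counts (control replicate 1) and 44145158 counts (control replicate 2). The counts of Ppp1r3c were 397, 976 and 940 in control and 189, 193 and 197 in cKO replicates 1 to 3, which corresponds to -2.11 on the log2 scale (SE 0.111, edgeR quasi-likelihood FDR 0.000126). The 8 Sertoli markers summed to between 1581 and 2139 CPM (counts divided by the scaled library total) in the 6 samples, and the 8 mesonephros markers to between 19.2 and 30.3 CPM. The 8 germ cell markers summed to 397, 620 and 644 CPM in control and 403, 179 and 296 CPM in cKO samples. In RNA of whole tissue, fewer cells of a type and less RNA per cell cannot be told apart. By staining of whole gonads, the paper counted significantly fewer germ cells in cKO testes of this stage. The library labelled cKO replicate 3 stood apart, with 268 CPM over 6 pre-granulosa markers against 82.8 to 100 CPM in the other samples and with 12534 Xist counts against 6 to 41. Whether it held testis tissue alone was not tested, and it was kept in the main fits as labelled. Values of the members, ciliary lists and other called genes without that library are given below. Within the marker lists edgeR called 0 genes, but some moved with the groups. Of 5 mesonephros markers tested, 3 lay above 0 and 2 below, Lhx1 (log2 fold change -0.78) and Ret (-0.08). Pax2 (0.78, at 16 to 61 counts) and Pax8 (0.52) were higher in every cKO sample than in any control. The same held for 8.42% of all genes. Without cKO replicate 3 the values of Pax2 and Pax8 were 0.55 and 0.32. Of 8 Sertoli markers, 2 lay above 0 and 6 below, with a median of -0.09. The 2 above, Sox9 (0.28) and Inhbb (0.25), had an unadjusted edgeR p under 0.05, as did 11.4% of all genes. Their groups overlapped. All 7 germ cell markers tested lay below 0, with 6 at an unadjusted edgeR p under 0.05 and 2 called by DESeq2. Over all genes these shares were 11.4% and 0.779%. All 6 pre-granulosa markers lay above 0, with 4 at an unadjusted edgeR p under 0.05, against 11.4% of all genes. Their sum was 100 and 97.3 CPM in cKO replicates 1 and 2 and 82.8 to 100 CPM in control samples. The summed rise was thus that of cKO replicate 3. The part of these markers in the Ttc30b values was not tested.

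The 3 Ttc30 genes lie close together on the minus strand of chromosome 2 (build mm10), each with 1 exon. Ttc30b spans chr2:75935849-75938462, Ttc30a2 chr2:75976172-75978179 and Ttc30a1 chr2:75979106-75981967. Their coding sequences are each 1992 bases long. Ttc30b was identical to Ttc30a1 at 94.9% of coding bases (102 mismatches) and to Ttc30a2 also at 94.9% (101 mismatches), and Ttc30a1 and Ttc30a2 were identical at 95.1% (97 mismatches). Because near-identical genes can share reads, a stretch that tells Ttc30b from the others is shown, coding bases 406 to 495 of the GENCODE M21 transcripts, on the minus strand, 5′ to 3′. Capitals mark the 14 positions at which the 3 genes are not all the same.
Ttc30b (chr2:75937913-75938002): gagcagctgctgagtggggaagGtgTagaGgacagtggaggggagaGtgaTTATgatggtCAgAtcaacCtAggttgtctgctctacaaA
Ttc30a1 (chr2:75981243-75981332): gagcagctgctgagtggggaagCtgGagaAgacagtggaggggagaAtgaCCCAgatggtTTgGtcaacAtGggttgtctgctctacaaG
Ttc30a2 (chr2:75977672-75977761): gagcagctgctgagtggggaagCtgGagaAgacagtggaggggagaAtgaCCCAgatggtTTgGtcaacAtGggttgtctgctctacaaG
At all 14 positions Ttc30b differed from both other genes, and Ttc30a1 and Ttc30a2 were the same.

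Windows of the length of a read were compared among the 3 genes. Of those of Ttc30b, 91.0% (2243 of 2464) occurred in neither paralog. The share was 84.0% (2279 of 2712) for Ttc30a1 and 68.0% (1257 of 1849) for Ttc30a2. Most of Ttc30b could therefore be read apart from its paralogs, whereas the longest run shared by Ttc30a1 and Ttc30a2 was 460 bases. The counting call in the methods names no option for reads that map to several places, and featureCounts by default leaves such reads out. The counts of the 3 genes are uncertain to that extent, and most so for Ttc30a2.

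Ttc30b carried the rise. Its counts were 262, 649 and 514 in control replicates 1 to 3 and 950, 954 and 904 in cKO replicates 1 to 3. Scaled to library size, these were 16.1, 14.7 and 12.54 CPM in control and 23.7, 26.5 and 27.3 CPM in cKO samples. Every cKO sample lay above every control sample, as for 8.42% of all genes tested. Means ± SD over 3 samples were 14.5 ± 1.81 CPM for control and 25.9 ± 1.92 CPM for cKO testes, which gave a log2 fold change of 0.85 (SE 0.106, 95% interval 0.61 to 1.09), or 1.80-fold (1.53 to 2.12). Because Ttc30b was picked for this difference, the values are a description. It was the only one of the 10 genes called by edgeR at an FDR below 0.05, where 0.0385% of all 15577 genes were called (0.0321% higher and 0.00642% lower in cKO testes), and that call is what chose it. DESeq2 called it too, with 0.779% of the genes it adjusted (0.4% higher and 0.379% lower). Without cKO replicate 3 the log2 fold change was 0.81. With control replicates 1, 2 and 3 left out in turn, edgeR called 0.0126%, 0.0382% and 0.0127% of genes, and with cKO replicates 1, 2 and 3 left out 0.051%, 0.0252% and 0.0189%. Ttc30b was among those called only without cKO replicate 1.

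Ttc30a1, which encodes a near-identical protein and is the nearest in level to Ttc30b among the paralogs, did not pass the test. It had 191, 540 and 519 counts in control and 446, 468 and 405 counts in cKO samples. These corresponded to 11.8, 12.2 and 12.7 CPM in control and 11.1, 13.01 and 12.3 CPM in cKO samples. The groups overlapped. The log2 fold change was -0.01 (SE 0.100, edgeR quasi-likelihood FDR 0.974) with a 95% interval of -0.24 to 0.21, which lay wholly below that of Ttc30b. Because Ttc30b was chosen for its rise, that comparison is a description. Without cKO replicate 3 the log2 fold change of Ttc30a1 was -0.02.

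Few counts were found for Ttc30a2, and how far this reflects low expression was not tested. Its counted extent was 2008 bases, against 2431 bases for its GENCODE M21 transcript. The extents of Ttc30b (2614 against 2737) and Ttc30a1 (2862 against 3721) were shorter too. Ttc30a2 had 3, 27 and 18 counts in control and 23 in each cKO sample. These were 0.185, 0.611 and 0.439 CPM in control and 0.574, 0.640 and 0.696 CPM in cKO samples. The cKO samples lay inside or just above the control range. The log2 fold change was 0.49 (SE 0.383, edgeR quasi-likelihood FDR 0.642), and its 95% interval of -0.37 to 1.35 held both 0 and the value of Ttc30b, so a change of that size was not resolvable at this depth. Leaving out control replicate 1 moved it to 0.27, leaving out control replicate 2 to 0.86 and leaving out cKO replicate 3 to 0.43.

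**Figure D1:**
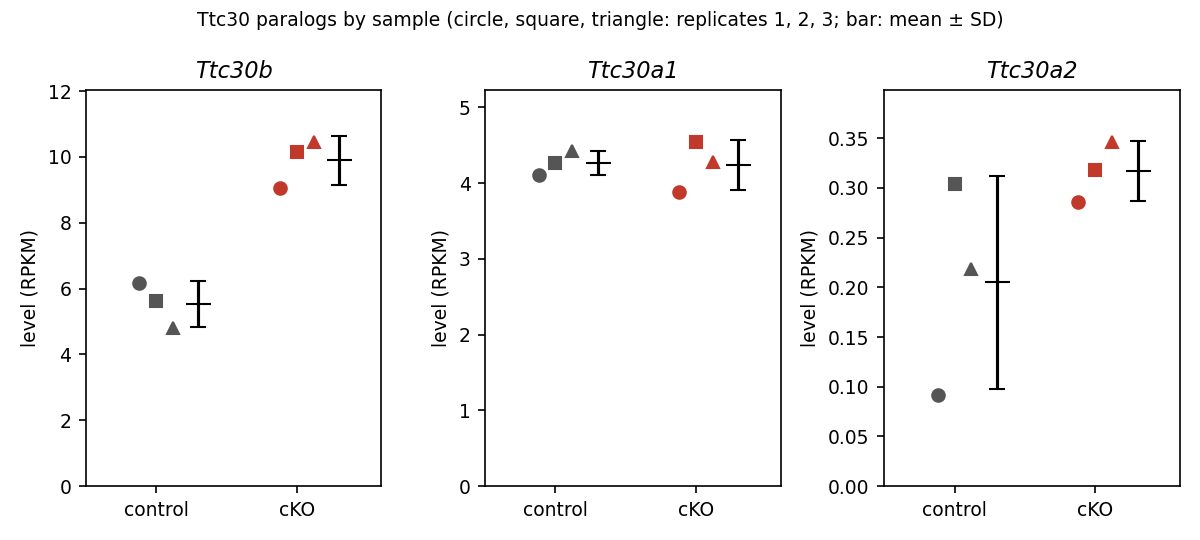
Levels of Ttc30b, Ttc30a1 and Ttc30a2 (vertical axes, RPKM, each from 0 and with its own scale) in control and cKO samples; symbols are single samples and bars the mean ± SD of 3. The Ttc30b points of the cKO samples (9.06 to 10.5 RPKM) sit above those of the controls (4.80 to 6.17 RPKM), while the groups overlap for both other genes.

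The split of reads among the paralogs shifted with Ttc30b. Its share of all Ttc30 counts was 57.5% (exact binomial 95% interval 52.8 to 62.0), 53.4% (50.5 to 56.2) and 48.9% (45.8 to 52.0) in control replicates 1 to 3. In cKO replicates 1 to 3 it was 66.9% (64.4 to 69.4), 66.0% (63.5 to 68.5) and 67.9% (65.3 to 70.4). These intervals cover counting error only, and no control interval met a cKO interval. The mean share was 53.2 ± 4.28% in control and 66.9 ± 0.924% in cKO testes (SD, n = 3). For each count of Ttc30a1 there were 1.19 ± 0.191 counts of Ttc30b in control and 2.13 ± 0.0969 in cKO testes. The share contains Ttc30b itself and is given without a test.

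The 3 genes together also stood higher in cKO testes. Their summed level was 28.1, 27.5 and 25.6 CPM in control and 35.4, 40.2 and 40.3 CPM in cKO samples. The groups did not overlap, as for 8.42% of all genes tested in that direction. The sum does not depend on which paralog a counted read was given to, but reads left out of the counting are missing from it too. Its log2 fold change was 0.51 (SE 0.0759, 95% interval 0.34 to 0.68), or 1.43-fold (1.27 to 1.61), with an edgeR FDR of 0.149 and a DESeq2 FDR of 0.000157. Without cKO replicate 3 the log2 fold change was 0.48. The sum includes Ttc30b and so is no independent evidence of a rise.

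The other core members of IFT-B, which hold the complex together, did not pass the test. Ift88 (chr14:57424071-57517936, plus strand), whose loss is the classic cause of missing cilia in mice, was measured at 28.2, 28.8 and 28.1 CPM in control and 26.9, 26.7 and 27.4 CPM in cKO samples. The groups did not overlap and the cKO samples were the lower, as for 7.17% of all genes tested, by a log2 fold change of -0.07 (SE 0.0626, edgeR quasi-likelihood FDR 0.690). By exact two-sided permutation its p was 0.1, and 3 samples a group cannot give a smaller value. Ift52 (chr2:163017472-163046135, plus strand), the subunit that IFT70 wraps around, lay at 51.4, 51.3 and 50.3 CPM in control and 45.4, 47.2 and 51.4 CPM in cKO samples. The groups overlapped, and the log2 fold change was -0.09 (SE 0.0662, 95% interval -0.24 to 0.06). Ift46 (chr9:44773009-44792714, plus strand), a partner of IFT52 in the core, gave 70.0, 65.9 and 55.4 CPM in control and 66.3, 68.0 and 56.7 CPM in cKO samples. These spread widely within each group, and the log2 fold change was 0.0016 (SE 0.100).

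The peripheral members, which attach to the core and to cargo, overlapped between the groups and did not pass the test. Ift57 (chr16:49699294-49765126, plus strand), which pairs with IFT20, was at 10.8, 12.04 and 11.6 CPM in control and 11.9, 11.3 and 12.52 CPM in cKO samples, a log2 fold change of 0.05 (SE 0.0981). Ift20 (chr11:78536436-78541473, plus strand), which also resides at the Golgi apparatus, was at 36.3, 41.8 and 33.5 CPM in control and 35.5, 34.3 and 35.9 CPM in cKO samples, a log2 fold change of -0.08 (SE 0.0853). In both genes the cKO values fell within or close to the control range. Ift172 (chr5:31253279-31291114, minus strand), the largest IFT-B protein, was at 78.3, 68.1 and 78.5 CPM in control and 71.9, 82.6 and 75.5 CPM in cKO samples, a log2 fold change of 0.03 (SE 0.0786). Ift80 (chr3:68892499-69004570, minus strand), mutated in a human skeletal ciliopathy, was at 47.0, 45.1 and 46.3 CPM in control and 47.3, 43.6 and 48.3 CPM in cKO samples, a log2 fold change of 0.0088 (SE 0.0646).

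**Figure D2:**
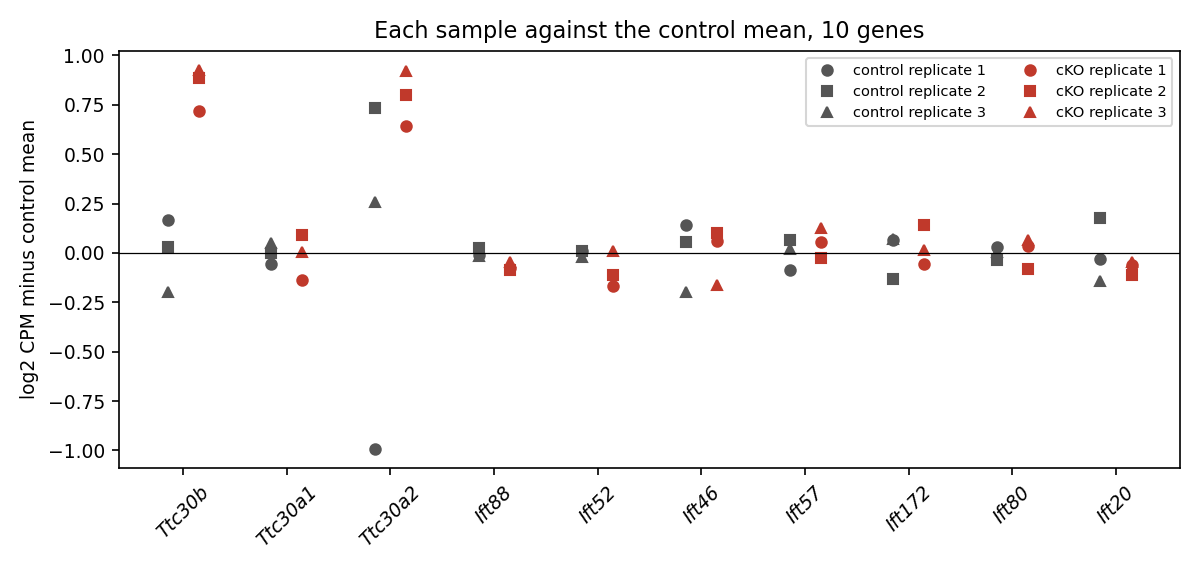
Each sample's log2 CPM minus the mean log2 CPM of the controls (vertical axis) for the 10 genes (horizontal axis); grey symbols are control and red symbols cKO samples. For Ttc30b the red symbols stand apart at 0.72, 0.88 and 0.92, and for Ttc30a2 the control with 3 counts is the low point.

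All 7 members outside the Ttc30 genes passed the filter on low counts, and edgeR called 0 of them, against 0.0385% of all genes. None had an unadjusted p under 0.05, against 11.4% of all genes, and DESeq2 and limma-voom also called 0. Their median log2 fold change was 0.0016, beside -0.0034 over all genes tested, with 4 above and 3 below 0 where 49.1% of all genes lay above. Their 95% intervals lay within -0.27 and 0.27 on the log2 scale (0.828-fold to 1.20-fold), so a rise of the size of that of Ttc30b was outside the interval of each of them. That size is a description, because Ttc30b was chosen for its rise. With any 1 sample left out, the 42 fitted log2 fold changes lay between -0.16 and 0.084, and the lowest edgeR FDR was 0.584. Without cKO replicate 3 they were -0.08 for Ift88, -0.14 for Ift52, 0.079 for Ift46, 0.0098 for Ift57, 0.046 for Ift172, -0.02 for Ift80 and -0.09 for Ift20.

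The further 8 IFT-B genes (Ift22, Hspb11, Ift27, Ift74, Ift81, Ttc26, Cluap1 and Traf3ip1) were likewise not called. Their log2 fold changes ran from -0.15 for Hspb11, which encodes IFT25, to 0.11 for Ift22, a small GTPase-like subunit, with a median of -0.02. Over all 15 IFT-B genes outside Ttc30, edgeR, DESeq2 and limma-voom each called 0 and none had an unadjusted edgeR p under 0.05. Of all genes, edgeR called 0.0385%, DESeq2 0.779% and limma-voom 7 of 15577, and 11.4% had such a p. A count of 0 among 15 is close to those shares of calls. The median was -0.011 for the 9 core genes and -0.018 for the 6 peripheral genes. The upper 95% bound of each of the 15 was below the lower bound of Ttc30b, which is again a description because Ttc30b was chosen for its rise. Without cKO replicate 3 the median of the 15 was -0.04.

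The deviation of the complex was also taken sample by sample. The mean log2 deviation of the 15 genes from the control mean was -0.034, 0.039 and -0.0055 in control replicates 1 to 3 and -0.031, -0.025 and 0.016 in cKO replicates 1 to 3. The corresponding deviations of Ttc30b were 0.17, 0.031 and -0.20 in control and 0.72, 0.88 and 0.92 in cKO replicates. The 2 ranges of Ttc30b lay apart, as for 8.42% of all genes tested in that direction. Ttc30b was chosen for that difference, so this is a description. The ranges of the mean of the 15 genes overlapped. A mean can hide single genes: the groups of Ift88 did not overlap, with cKO samples lower, as for 7.17% of all genes.

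**Figure D3:**
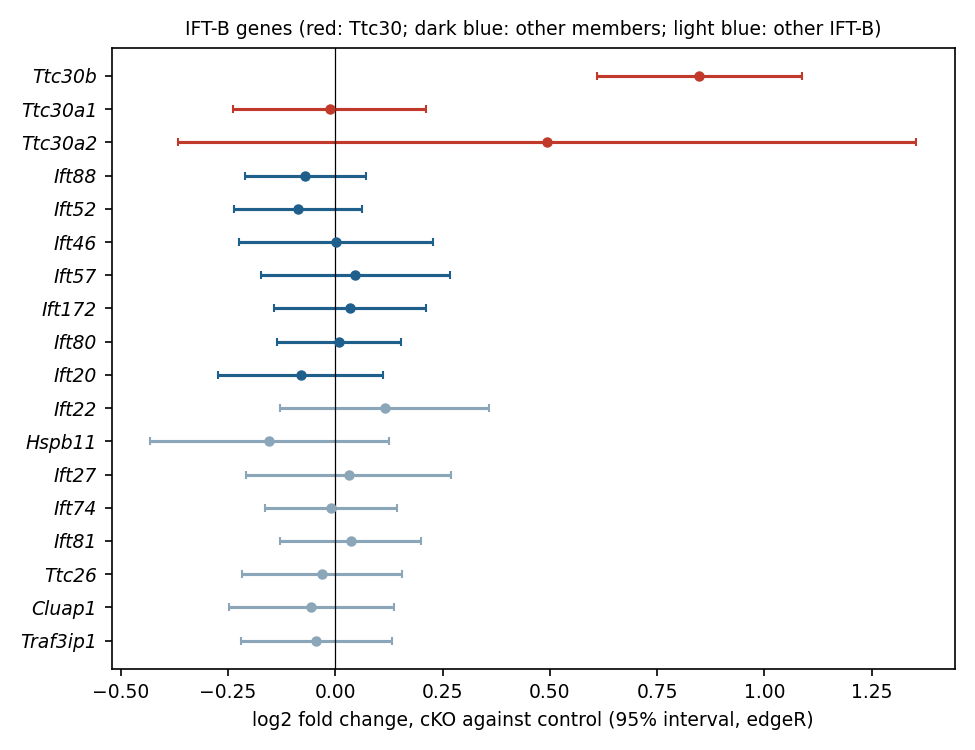
Log2 fold change of cKO against control with its 95% interval (horizontal axis) for all 18 IFT-B genes (vertical axis). Ttc30b is at 0.85 (0.61 to 1.09), the 15 genes outside Ttc30 have intervals within -0.43 and 0.36, and the wide interval is that of Ttc30a2.

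Levels were compared between genes as RPKM, CPM per kilobase of exon. In control testes the order from high to low was Ift20 (46.4 ± 5.26), Ift52 (24.0 ± 0.283), Ift46 (19.1 ± 2.25), Ift172 (13.9 ± 1.09), Ift80 (11.4 ± 0.246), Ift88 (9.21 ± 0.127), Ttc30b (5.53 ± 0.691), Ift57 (4.53 ± 0.242), Ttc30a1 (4.27 ± 0.158) and Ttc30a2 (0.205 ± 0.107), as mean RPKM ± SD of 3 samples. Only Ift57 and Ttc30a1 had overlapping ranges among neighbours in this order. In cKO testes Ttc30b, at 9.89 ± 0.735 RPKM, stood above Ift88, at 8.78 ± 0.121 RPKM, and their ranges (9.06 to 10.5 and 8.68 to 8.91) did not overlap. The other genes kept their order. In both groups Ttc30b was the IFT70 gene with the highest level per kilobase, 1.08 to 1.502 times Ttc30a1 in control and 2.23 to 2.44 times in cKO samples. The lengths were not adjusted for windows shared among the paralogs. Fewer windows were unique for Ttc30a1 (84.0%) and Ttc30a2 (68.0%) than for Ttc30b (91.0%), so the smaller of these ratios are uncertain.

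Genes whose log2 CPM followed that of Ttc30b most closely over the 6 samples lay outside the ciliary lists. By Pearson's r among 13792 genes they were Galnt17 (0.992), Trib1 (0.991), Nr5a1 (0.991), Fam110a (0.988) and Pafah2 (0.985). The 6 points form the 2 groups of the study, so r mainly follows the difference between them. Nr5a1 and Fam110a lie on chromosome 2, like Ttc30b, and the other 3 on other chromosomes. Nr5a1, the gene whose sequences drive the Cre, was at 347 CPM in control and 550 CPM in cKO testes on average (log2 fold change 0.66, edgeR quasi-likelihood FDR 0.0401). Leaving out cKO replicate 3 gave 0.67 (edgeR FDR 0.132). Its part in the Ttc30b values was not tested. Ttc30a1 had r = -0.074 and held rank 7409, and the IFT-B gene with the highest r was Ift22 (0.631).

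Ciliary gene sets beyond IFT-B were taken next. Of 7 IFT-A genes, 10 genes for IFT motors, 9 BBSome genes and 15 transition zone genes, edgeR, DESeq2 and limma-voom called 0, where edgeR called 0.0385% and DESeq2 0.779% of all genes. An unadjusted edgeR p under 0.05 was found for 1 of them, against 11.4% of all genes. The median log2 fold changes were 0.023 for IFT-A, 0.040 for the motors, -0.0092 for the BBSome and -0.0099 for the transition zone. When cKO replicate 3 was left out they were 0.0097, 0.019, -0.046 and -0.034 in the same order. The gene of lowest p in IFT-A was Tulp3, an adaptor that brings receptors into cilia with IFT-A, at 61.0, 67.8 and 70.4 CPM in control and 71.7, 71.7 and 84.3 CPM in cKO samples (log2 fold change 0.19, SE 0.0844, edgeR quasi-likelihood FDR 0.440), or 0.11 without cKO replicate 3. Its groups did not overlap, as for 8.42% of all genes in that direction. In the motors the lowest p belonged to Dync2i1, an intermediate chain of dynein-2 (-0.10, SE 0.0723, edgeR quasi-likelihood FDR 0.631), and in the BBSome to Bbs5 (-0.17, SE 0.139, edgeR quasi-likelihood FDR 0.667). In the transition zone it was Rpgrip1l, a scaffold at the ciliary gate (0.22, SE 0.0773, edgeR quasi-likelihood FDR 0.382), which accounts for the 1 unadjusted p under 0.05. Without cKO replicate 3 its log2 fold change was 0.16 (unadjusted edgeR p 0.103). Rpgrip1l and the motor gene Kif3b were higher in every cKO sample than in any control, as for 8.42% of all genes. Mks1 of the transition zone was lower in every cKO sample, as for 7.17%.

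Regulators and a pathway read through cilia were examined in the same way. The regulators were Rfx1, Rfx2, Rfx3, Rfx4, Rfx7 and Foxj1, of which the RFX factors are known to switch on IFT genes and FOXJ1 motile cilia. None of these 6 was called by edgeR, DESeq2 or limma-voom, and none had an unadjusted edgeR p under 0.05. Of all genes, edgeR called 0.0385% and DESeq2 0.779%, and 11.4% had such a p. The median log2 fold change of the 6 regulators was 0.041 (-0.0083 without cKO replicate 3), and Rfx2 had the lowest p (-0.18, SE 0.107, edgeR quasi-likelihood FDR 0.555). The Hedgehog genes Dhh, Ptch1, Gli1 and Hhip were likewise not called, and none had an unadjusted p under 0.05, against the same shares of all genes. All 4 lay below 0, where 49.1% of all genes lay above, with a median of -0.13. Leaving out cKO replicate 2 moved that median to -0.21, and leaving out cKO replicate 3 to -0.071. Gli1, a transcription factor that Hedgehog signalling induces, had the lowest p (-0.18, SE 0.0895, edgeR quasi-likelihood FDR 0.474). It was at 132, 111 and 119 CPM in control and 107, 117 and 94.2 CPM in cKO samples, with overlap, and its log2 fold change was -0.10 without cKO replicate 3.

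The motile cilium markers, which would mark multiciliated cells, summed to 18.3 to 19.99 CPM in control and 16.9 to 19.8 CPM in cKO samples, and Mcidas, a defining gene of such cells, was at 0 in every sample. 1 other marker of that list, Dnai1, was called by DESeq2 (FDR 0.0444, where 0.779% of all genes were called) but not by edgeR (log2 fold change -1.29, SE 0.297, FDR 0.377). Its log2 fold change was -1.15 when cKO replicate 3 was left out. This gene was picked once its values were known.

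**Figure D4:**
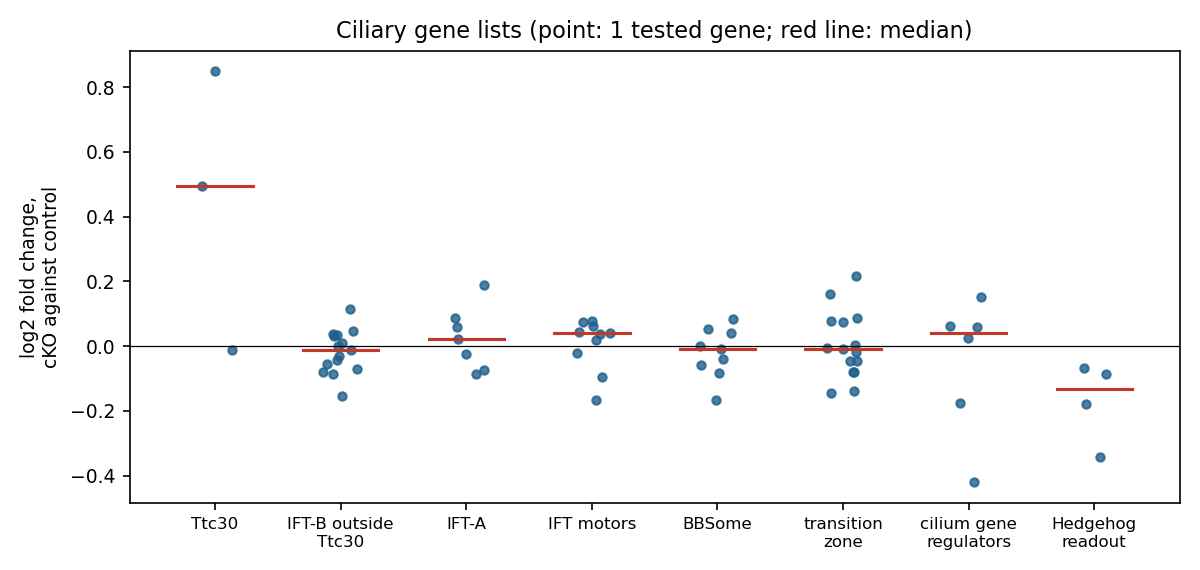
Log2 fold changes of cKO against control (vertical axis) for tested genes of 8 sets (horizontal axis: Ttc30, IFT-B outside Ttc30, IFT-A, IFT motors, BBSome, transition zone, cilium gene regulators and Hedgehog readout, without the motile cilium markers); each point is a gene and each red line the median. Apart from Ttc30b at 0.85 and Ttc30a2 at 0.49, the points lie between -0.42 (Rfx4) and 0.22 (Rpgrip1l).

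The genes near Ttc30b on chromosome 2 were also examined. There were 15 within 1 Mb, of which 14 were tested. Of these, edgeR called 0 and DESeq2 called 1, against 0.0385% and 0.779% of all genes, and 1 had an unadjusted edgeR p under 0.05, against 11.4%. The median log2 fold change was 0.022, with 9 of 14 above 0 against 49.1% of all genes. The nearest tested gene on one side was Agps, an enzyme of ether lipid synthesis, at 4.50 kb on the opposite strand (log2 fold change -0.0076, SE 0.0542, edgeR quasi-likelihood FDR 0.974). On the other side the nearest beyond the Ttc30 paralogs was Pde11a, a cyclic nucleotide phosphodiesterase, at 52.7 kb (0.13, SE 0.305, edgeR quasi-likelihood FDR 0.901). With cKO replicate 3 left out these were 0.0014 for Agps and 0.21 for Pde11a. The gene called by DESeq2 was Cyct, testis cytochrome c, at 415 kb, which was lower in cKO samples (log2 fold change -1.12, SE 0.272, DESeq2 FDR 0.00543, edgeR FDR 0.377, and -1.06 without cKO replicate 3) and was likewise picked once its values were known.

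**Figure D5:**
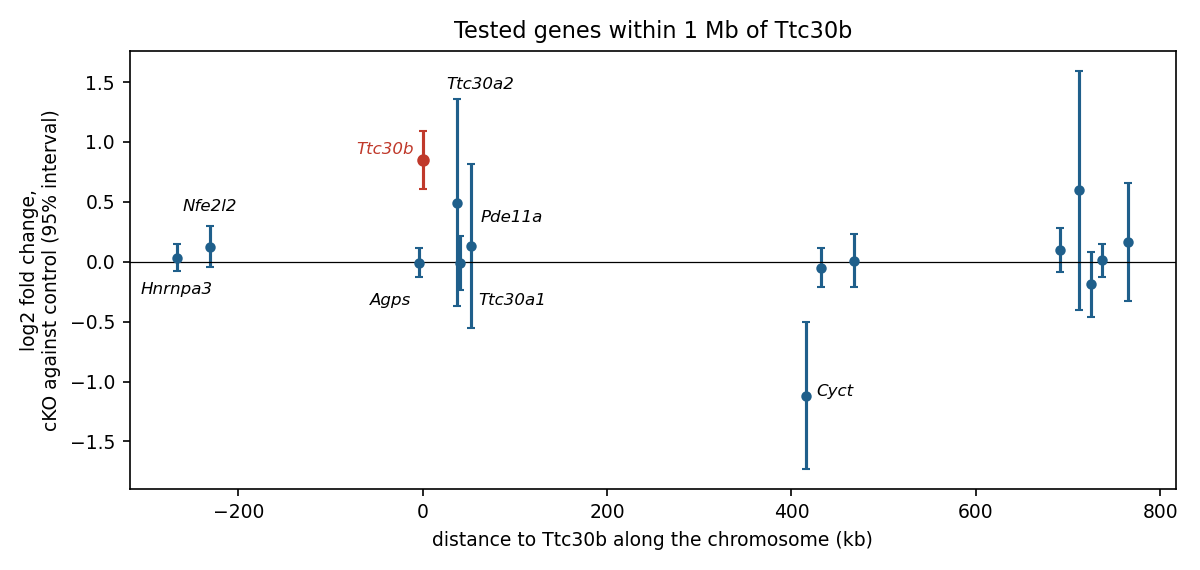
Log2 fold change of cKO against control with its 95% interval (vertical axis) against distance from Ttc30b in kb (horizontal axis) for 14 tested genes within 1 Mb and Ttc30b itself (red, at 0 kb). Agps, at -0.0076, lies 4.50 kb away, and Cyct is the low point at -1.12.

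RFX factors bind a motif called the X-box in promoters of many IFT genes. Promoters were searched on both strands for GTTGCC, 6 letters that form part of it, with no mismatch allowed. They were the 300 bases around each gene start (250 before and 50 after) in RefSeq, build GRCm38.p6, and 8 of the 10 members had an entry (all but Ttc30b and Ift80). GTTGCC was found in 4 of the 8 (Ttc30a2, Ift88, Ift57 and Ift172), against 14.1% of all 27025 promoters, and in 7 of the 15 IFT-B genes with an entry. The match of the IFT70 paralog is shown, with the motif in capitals, on the strand of the gene, 5′ to 3′.
Ttc30a2 (chr2:75978188-75978213, minus strand): ccgttggcttGTTGCCatgggaacaa
This is a match of letters, and binding was not tested. Ttc30a2 did not pass the test between the groups.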

How the data were processed

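RNA was measured in whole tissue that the study names testes, in 6 samples, 3 control and 3 cKO, grouped by the genotype and title labels. The values deposited by the authors were raw counts of reads per gene. Per the labels and methods, stranded mRNA libraries were aligned to mm10 with STAR 2.5 and counted per RefSeq gene in reverse-stranded mode with featureCounts (Subread 1.5.0-p1). The table held 24470 genes, and all of its sample columns were used.

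The main test was edgeR 4.0.16 in R 4.3.3, with filterByExpr (minimum count 10), TMM scaling and its quasi-likelihood F-test, fitted to all 6 samples with group as the only term. Benjamini-Hochberg adjustment (FDR) ran over 15577 genes, and genes with an FDR below 0.05 are called. The standard error was derived from the F statistic. CPM used TMM-scaled totals. The table holds no gene lengths, so the lengths for RPKM were the exons of GENCODE M21 (GRCm38), or the table's own extent for 1-exon genes. DESeq2 1.42.0, which the authors used, limma-voom (limma 3.58.1) and other alternatives, and leaving out each sample, are given in the closing section. The fits were tested on simulated data.

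The members and gene lists were chosen with earlier results of these data known. The text names all members, the gene of lowest p in each ciliary list, called genes, the nearest neighbours and the 5 genes most like Ttc30b. With 3 samples a group, an exact permutation p cannot fall below 0.1. Depth ranged from 16139487 to 44145158 counts. Every pair of replicates differed by more than sampling noise.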

Additional observations from a re-analysis of the deposited data

How the results depend on the processing

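Of 541 values recomputed under other settings, 486 kept their direction and stayed on their side of the threshold (for counts, within 1.5 times, and for medians, within the spread between replicates), and 24 changed sign. The number of members called was 0 with the stricter filter (1 CPM or more in 3 samples or more), 0 with the replicate block and 0 with the Ttc30 rows summed, and 0 to 1 with any 1 sample left out (1 only without cKO replicate 1). Ttc30b kept a log2 fold change of 0.85 with the stricter filter (edgeR FDR 0.0520) and of 0.85 with the replicate block (edgeR FDR 0.569), and ranged from 0.75 (without control replicate 3) to 0.92 (without control replicate 1) with a sample left out, at FDRs of 0.0414 to 0.227. Same-numbered samples did not deviate together over all genes tested (correlations -0.203, -0.266 and -0.130). These are deviations from means of 3 samples, and the labels do not name litters. Whether same-numbered samples shared more than a number was not tested. Nr5a1 was no longer called with the block (0.67, edgeR FDR 0.267), and no other call of a member, list, neighbour or gene named above changed with it. Nr5a1 also fell short with the stricter filter (0.67, edgeR FDR 0.0503), and with a sample left out it ranged from 0.58 to 0.72 (FDR 0.0295 to 0.212), called in 1 of those fits. The summed Ttc30 log2 fold change was 0.52 with DESeq2, past the threshold. DESeq2 called 1 neighbour.

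Values near 0 changed sign with a sample left out: Ttc30a1 lay between -0.067 and 0.046, Ift46 between -0.097 and 0.079, Ift172 between -0.041 and 0.079, Ift80 between -0.020 and 0.052, Ift20 between -0.16 and 0.0072, Agps between -0.052 and 0.013 and Pde11a between -0.12 and 0.30. Median log2 fold changes ranged from -0.020 to 0.048 for IFT-A, from -0.050 to 0.040 for the BBSome, from -0.034 to 0.041 for the transition zone and from -0.0083 to 0.069 for the regulators, all across 0. They stayed on 1 side of 0 for the IFT motors (0.012 to 0.050), the Hedgehog genes (-0.21 to -0.071) and the 15 IFT-B genes (-0.038 to -0.015). The cause of these shifts was not tested.

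With 3 samples a group, Ttc30a2, at 3 to 27 counts, was limited by depth. The stricter filter dropped Ttc30a2, which therefore has no value there.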
